A study of Oryza sativa with 51 samples.

Results

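The genes described here are 8 rice loci of nitrogen assimilation, out of 55986 genes listed in each RNA table. They were chosen by locus: the glutamine synthetase genes GS1;1, GS1;2 and GS2, the glutamate synthase genes Fd-GOGAT and NADH-GOGAT1, the nitrate reductase genes NIA1 and NIA2, and the nitrite reductase gene NiR. All 8 loci were found, and 7 of them were among the 20642 genes that reached 1 TPM (transcripts per 1000000) in at least 3 libraries and were tested; NIA2 did not reach that level.

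Plants reduce nitrate to nitrite in the cytosol with nitrate reductase, and nitrite to ammonium in the plastid with nitrite reductase. Glutamine synthetase fixes ammonium onto glutamate to give glutamine, and glutamate synthase (GOGAT) passes the amide nitrogen on to 2-oxoglutarate to give glutamate. In leaves the plastid forms, GS2 and the ferredoxin-dependent Fd-GOGAT, are known for re-fixing the ammonium that photorespiration releases. The cytosolic GS1 enzymes and the NADH-dependent GOGAT are known in rice for nitrogen remobilisation from old leaves and for assimilation of ammonium in roots.

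The series holds 51 samples in 17 groups. RNA was sequenced from rice seedlings of the line Zhonghua11 with 4 leaves, in 3 libraries each from normal water, moderate drought (soil at about 20% relative water content) and severe drought (about 10%), the drought having developed slowly in paddy soil. Monoubiquitinated histone H2B (H2Bub1), a chromatin mark of transcribed genes, was mapped by chromatin immunoprecipitation in the same 3 conditions, and in leaves of osbzip46 mutant and wild type plants of the same background under drought and normal water. OsbZIP46 is a transcription factor of abscisic acid signalling, and the nature of the mutant allele is not given in the labels. No label states that replicates came from separate plants, so the p-values reflect the spread among these libraries, and that spread may be technical.

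The RNA libraries had 19185 to 20012 genes at 1 TPM or more, and 8.3 to 10.7 Gb of aligned bases worked out from coverage divided by FPKM (fragments per kilobase and 1000000 fragments). Severe replicate 3 stood apart, its highest correlation with another library being 0.955; 1402 tested genes (6.79%) lay at least 1 log2 unit above or below both of its group mates, against 0.092% to 0.354% in the other 8 libraries. Normal replicate 3 was not unusual over all genes (54 genes, 0.262%), but 4 of the 8 nitrogen assimilation genes, NADH-GOGAT1, NIA1, NIA2 and NiR, lay at least 1 log2 unit above both normal mates in it. The RNA labels name no tissue. The leaf marker genes were high, with RbcS (LOC_Os12g17600), for the Rubisco small subunit, at 8226 TPM ± 1359 under normal water, 1992 TPM ± 287 in moderate drought and 1522 TPM ± 780 in severe drought (SD, n = 3 each).

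The summed transcripts of the 8 genes were lower in drought, and GS2 and Fd-GOGAT made up most of the sum in every normal library. Summed over the 8 genes, the 3 normal libraries held 3682, 3558 and 4482 TPM, the moderate drought libraries 1683, 1439 and 1861 TPM, and the severe drought libraries 1413, 1600 and 1198 TPM. No drought library reached the lowest normal library; in bulk seedlings, fewer cells of a type and less RNA per cell cannot be told apart. GS2, Fd-GOGAT, NIA1 and NiR fell in both droughts, GS1;1 fell in moderate drought, and NADH-GOGAT1 rose in both, a call that did not hold in most alternative settings.

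**Figure D1:**
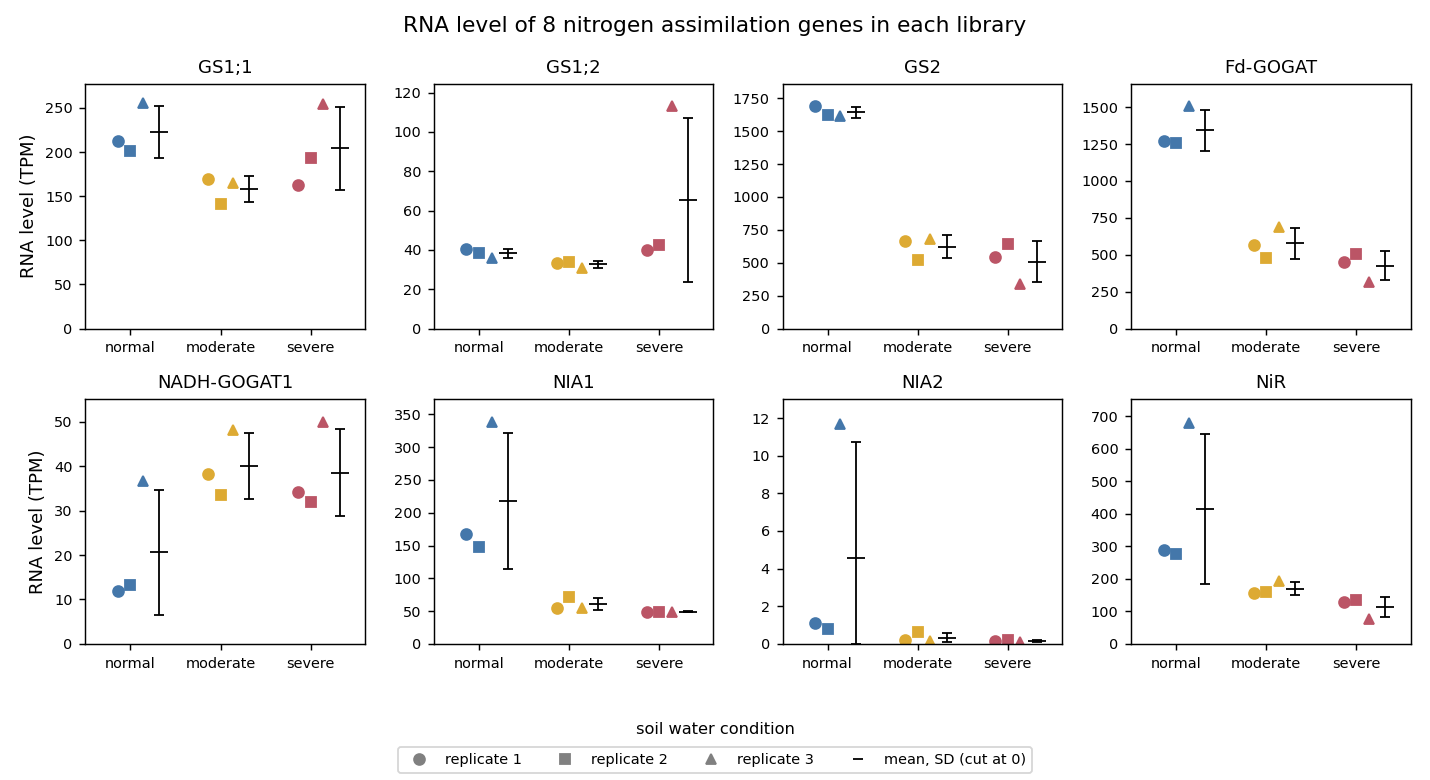
RNA level in TPM (vertical axes, from 0, each panel with its own scale) of the 8 genes in each of the 9 libraries, grouped by soil water condition. Symbols mark replicates 1 to 3 and the black bars the mean and SD of 3 libraries. GS2, Fd-GOGAT, NIA1 and NiR lie lower in all 6 drought libraries than in any normal library, and normal replicate 3 lies high for NADH-GOGAT1, NIA1, NIA2 and NiR.

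Transcripts of nitrate reduction are described first for NIA1 (LOC_Os08g36480, chr8:23033230-23038596, plus strand), a nitrate reductase gene. It had 167, 148 and 338 TPM in the normal libraries, 54.5, 71.4 and 55.4 TPM in moderate drought, and 49.2, 48.4 and 49.2 TPM in severe drought. The 3 severe libraries were nearly equal, and no drought library reached a normal one. NIA1 fell by 1.74 ± 0.27 (SE) on the log2(TPM + 1) scale in moderate drought and fell by 2.03 ± 0.27 in severe drought (limma, two-sided, adjusted p = 0.000681 and 0.000281). This call held in all 16 alternative settings in both droughts, and the log2 fold changes were -1.38 and -1.66 in moderate and severe drought without normal replicate 3, whose value was 2.14 times the mean of its mates.

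LOC_Os08g36500 (chr8:23051421-23055575, minus strand), listed here as a close paralog of NIA1, lies near it on the same chromosome. The ratio of NIA1 to this paralog in TPM was 1.99, 1.97 and 2.05 under normal water, 1.89, 1.9 and 1.9 in moderate drought, and 1.75, 1.8 and 1.83 in severe drought. Reads of both genes may have been split between them in the authors' counting, so the level of each is uncertain. LOC_Os08g36500 fell by 1.65 ± 0.26 in moderate drought and fell by 1.86 ± 0.26 in severe drought (adjusted p = 0.000701 and 0.000355), and without normal replicate 3 its log2 fold changes were -1.31 and -1.51.

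NIA2 (LOC_Os02g53130, chr2:32513739-32517155, minus strand), also known as NR2, is the other nitrate reductase gene of the set and was expressed at a low level. It had 1.1, 0.813 and 11.7 TPM in the normal libraries, 0.21, 0.611 and 0.17 TPM in moderate drought, and 0.146, 0.186 and 0.116 TPM in severe drought. Every drought library lay below every normal library, and normal replicate 3 was 12.2 times the mean of its mates. Without the filter on low values, the log2 fold change was -1.47 ± 0.65 in moderate drought and -1.67 ± 0.65 in severe drought (limma, adjusted p = 0.135 and 0.0862), so no change was called. Mean read depth over the gene was between 0.685 and 76.8 per base.

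NiR (LOC_Os01g25484, chr1:14446910-14453474, plus strand) encodes the plastid nitrite reductase, which takes up the product of nitrate reductase. It had 288, 276 and 681 TPM in the normal libraries, 157, 159 and 192 TPM in moderate drought, and 129, 135 and 77.8 TPM in severe drought. The 3 groups did not overlap, and replicate 3 was the highest normal library and the lowest severe one. NiR fell by 1.16 ± 0.35 in moderate drought (adjusted p = 0.019) and fell by 1.77 ± 0.35 in severe drought (adjusted p = 0.00227). The moderate call was lost without moderate replicate 1 (adjusted p = 0.0566) or moderate replicate 2 (adjusted p = 0.0559), and the difference was -0.74 without normal replicate 3 (adjusted p = 0.0305). The severe call held in all 16, at -1.34 without normal replicate 3 and -1.09 without both libraries numbered 3.

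The sum of NIA1 and NIA2 transcripts over NiR was taken as a log2 ratio within each library, without LOC_Os08g36500. It was -0.78, -0.88 and -0.96 under normal water, -1.52, -1.15 and -1.79 in moderate drought, and -1.38, -1.47 and -0.66 in severe drought. Severe replicate 3 alone among the drought libraries lay above the normal range. The mean of the 6 drought libraries was -1.33 ± 0.39 and that of the 3 normal libraries -0.88 ± 0.09, a difference of -0.45 that did not pass the exact permutation test (two-sided, p = 0.119, adjusted over 4 ratios 0.119). With LOC_Os08g36500 added to the sum, the difference was -0.41 and did not pass the test (adjusted p = 0.143). Without severe replicate 3, the difference for the sum of NIA1 and NIA2 was -0.58 and passed the test (adjusted p = 0.0476).

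Among the glutamine synthetase genes, GS2 (LOC_Os04g56400, chr4:33624332-33631095, minus strand), which encodes the plastid enzyme, had the most abundant transcript and fell furthest. It had 1688, 1623 and 1617 TPM in the normal libraries, 665, 522 and 683 TPM in moderate drought, and 544, 642 and 337 TPM in severe drought. Its mean level ranked 73 of the 20642 tested genes under normal water, 144 in moderate drought and 195 in severe drought. All 6 drought libraries lay far below the normal ones. GS2 fell by 1.41 ± 0.22 in moderate drought and fell by 1.74 ± 0.22 in severe drought (adjusted p = 0.000701 and 0.000204), and both calls held in all 16 alternative settings.

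GS1;1 (LOC_Os02g50240, chr2:30674776-30678659, minus strand) encodes a cytosolic glutamine synthetase. It had 212, 201 and 256 TPM in the normal libraries, 169, 141 and 165 TPM in moderate drought, and 163, 193 and 254 TPM in severe drought. All moderate libraries were lower than all normal ones, while the severe libraries spread across both ranges. GS1;1 fell by 0.49 ± 0.17 in moderate drought (adjusted p = 0.0337). That call was lost without the filter on low values (adjusted p = 0.0644), without any 1 of the 3 moderate libraries (0.055, 0.112 and 0.0617 for replicates 1, 2 and 3), and without normal replicate 1 (0.0636) or 3 (0.115). In severe drought its log2 fold change was -0.15 ± 0.17 (95% interval -0.53 to 0.24, adjusted p = 0.472), and -0.32 with adjusted p = 0.047 without severe replicate 3.

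GS1;2 (LOC_Os03g12290, chr3:6457910-6462727, minus strand), a cytosolic form known in rice for ammonium assimilation in roots, was the one tested gene of the set with no call in either drought. It had 40.4, 38.4 and 35.9 TPM in the normal libraries, 33.6, 33.7 and 30.7 TPM in moderate drought, and 40, 42.6 and 113 TPM in severe drought. Severe replicate 3 was 2.74 times the mean of its mates. The log2 fold change was -0.22 ± 0.33 in moderate drought (95% interval -0.98 to 0.54, adjusted p = 0.599) and 0.59 ± 0.33 in severe drought (-0.18 to 1.35, adjusted p = 0.155). Without severe replicate 3, the same moderate difference of -0.22 passed the threshold (adjusted p = 0.019), and the severe difference was 0.11 (adjusted p = 0.245).

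The balance between cytosolic and plastid glutamine synthetase transcripts was measured as the share of GS1;1 and GS1;2 in the summed TPM of the 3 genes. This share does not depend on scaling between libraries. The sum itself was 1940, 1863 and 1909 TPM under normal water, 868, 696 and 879 TPM in moderate drought, and 747, 878 and 704 TPM in severe drought. The cytosolic share was 13%, 12.9% and 15.3% in the normal libraries, 23.3%, 25.1% and 22.2% in moderate drought, and 27.2%, 26.9% and 52.2% in severe drought. It was higher in 6 of 6 drought libraries than in any normal library, and in severe replicate 3 cytosolic transcripts outnumbered those of GS2. The drought mean was 29.5% ± 11.3 (SD, n = 6) against 13.7% ± 1.38 (SD, n = 3) under normal water, a difference of 15.76 percentage points (exact permutation test, two-sided, p = 0.0238, the smallest p this design allows; adjusted over 4 ratios 0.0476). Without severe replicate 3 the difference was 11.22 points with the same adjusted p of 0.0476. Leaving out any other single library except moderate replicate 3 ended the call (exact permutation, adjusted p = 0.0714 for 1 drought library and 0.143 for 1 normal library), as fewer libraries raise the smallest p that can be reached. Drought and normal libraries did not overlap in any of these tests, so the unadjusted p was each time the smallest possible. Which omissions kept the call was thus set by the number of libraries and by the other ratios in the adjustment. For either drought alone, an exact permutation test of 3 libraries against 3 cannot go below p = 0.1. Within the cytosolic pair, GS1;1 over GS1;2 averaged 2.03 ± 0.45 on the log2 scale in drought and 2.54 ± 0.26 under normal water, a difference of -0.51 that did not pass (exact permutation test, p = 0.0714, adjusted 0.0952). Without moderate replicate 3 it was -0.58 and passed (adjusted p = 0.0476).

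**Figure D2:**
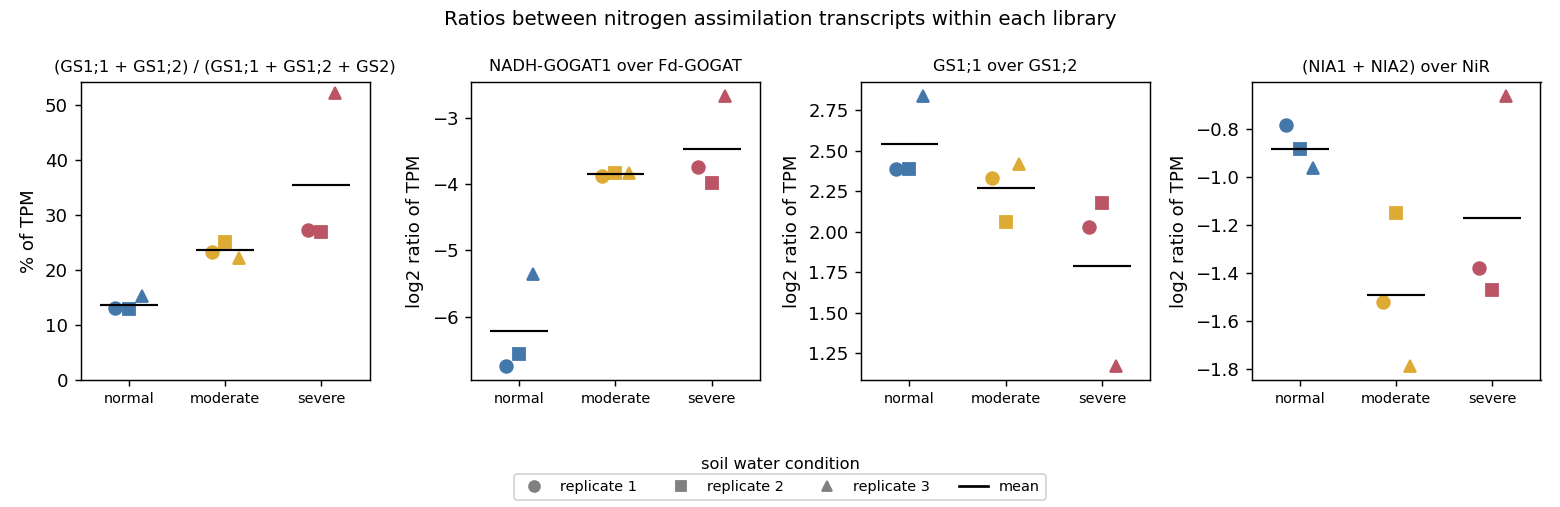
Ratios between transcripts within each library, by soil water condition: the cytosolic share of glutamine synthetase transcripts in % of TPM (axis from 0), and log2 ratios of TPM for NADH-GOGAT1 over Fd-GOGAT, GS1;1 over GS1;2 and NIA1 plus NIA2 over NiR. Symbols mark replicates and lines the mean of 3 libraries. In the first 2 panels all 6 drought libraries lie above all 3 normal libraries, and in all 4 panels severe replicate 3 lies apart from its mates.

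Of the glutamate synthase genes, the ferredoxin form fell and the NADH form had higher means in drought. Fd-GOGAT (LOC_Os07g46460, chr7:27723015-27738539, minus strand), the ferredoxin-dependent plastid enzyme, had 1273, 1257 and 1506 TPM in the normal libraries, 565, 478 and 687 TPM in moderate drought, and 454, 506 and 317 TPM in severe drought. All drought libraries lay below all normal ones. It fell by 1.23 ± 0.20 in moderate drought and fell by 1.68 ± 0.20 in severe drought (adjusted p = 0.00075 and 0.000128), and both calls held in all 16 alternative settings.

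NADH-GOGAT1 (LOC_Os01g48960, chr1:28091208-28102930, minus strand) encodes an NADH-dependent form. It had 11.8, 13.3 and 36.8 TPM in the normal libraries, 38.3, 33.5 and 48.1 TPM in moderate drought, and 34.1, 31.9 and 49.9 TPM in severe drought. Normal replicate 3, at 2.93 times the mean of its mates, fell inside the range of both drought groups, so the groups overlapped. NADH-GOGAT1 rose by 1.09 ± 0.38 in moderate drought and by 1.03 ± 0.38 in severe drought (adjusted p = 0.0361 and 0.0424).

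The rise of NADH-GOGAT1 was near the threshold, and 10 of 16 alternatives in moderate drought and 12 of 16 in severe drought took it past 0.05. With quantile normalization it was 0.87 in moderate drought (adjusted p = 0.0635) and 0.76 in severe drought (0.0909). Leaving out single libraries ended the moderate call for every library except normal replicate 3 and severe replicates 1 and 2, with adjusted p up to 0.126, and the severe call for every library except normal replicate 3, with adjusted p up to 0.158. Without normal replicate 3 the fold changes were 1.58 and 1.52 in moderate and severe drought, and all 6 drought libraries lay above the 2 normal ones.

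NADH-GOGAT1 over Fd-GOGAT within a library, as a log2 ratio, was -6.75, -6.56 and -5.36 under normal water, -3.88, -3.83 and -3.84 in moderate drought, and -3.74, -3.99 and -2.67 in severe drought. It was higher in 6 of 6 drought libraries than in any normal library, normal replicate 3 included. The drought mean was -3.66 ± 0.49 (SD, n = 6) against -6.22 ± 0.76 under normal water (n = 3), a difference of 2.57 (exact permutation test, two-sided, p = 0.0238, the smallest possible; adjusted 0.0476). It passed without moderate or severe replicate 3, and the adjusted p was 0.0714 without any 1 of the other drought libraries and 0.143 without any 1 normal library. Here too the unadjusted p was each time the smallest possible. The number of libraries and the other ratios in the adjustment thus set which omissions passed. Fd-GOGAT remained the more abundant transcript in every library, and the summed GOGAT level was 1285, 1270 and 1543 TPM under normal water, 603, 512 and 735 TPM in moderate drought, and 488, 538 and 367 TPM in severe drought.

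Of the 7 tested genes, 6 passed the threshold of adjusted p under 0.05 in moderate drought (5 lower, 1 higher), where 58.3% of all tested genes did (18.9% lower, 39.4% higher). In severe drought 5 passed (4 lower, 1 higher), against 62.7% of all tested genes (20.6% lower, 42.1% higher). Called genes were mostly lower among these 7 and mostly higher among all tested genes. The median log2 fold change of the 7 was -1.16 in moderate drought and -1.68 in severe drought, beside 0.20 and 0.22 for all tested genes. All moderate libraries lay below all normal ones in 7 of the 8 genes and all severe libraries in 5 of 8. These counts include NIA2, which was not tested. The groups did not overlap, in either direction, in 73.1% and 68.6% of all tested genes, and 5 of 8 is near the second share. A share of all tested genes lying wholly lower is not given here. Both comparisons use the same 3 normal libraries.

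**Figure D3:**
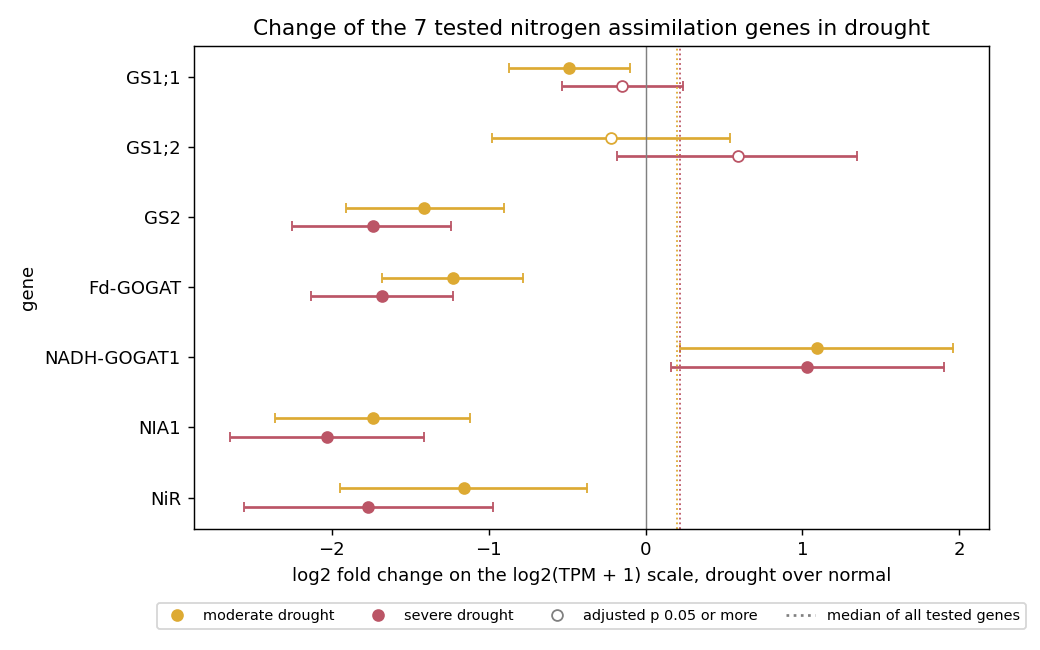
Log2 fold change on the log2(TPM + 1) scale (horizontal axis, drought over normal) of the 7 tested genes in moderate and severe drought, with 95% intervals from the limma fit. Filled points passed adjusted p under 0.05, and dotted lines mark the median of all tested genes (0.20 and 0.22). GS2, Fd-GOGAT, NIA1 and NiR lie left of 0 in both droughts, and NADH-GOGAT1 lies right of it.

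The scaling of libraries bears on the size of the changes. Quantile normalization took the median of all genes to -0.01 in both droughts and the share of higher among called genes to 49.6% in moderate and 48.3% in severe drought, against 67.5% and 67.1% as fitted. Under it, the falls of GS2, Fd-GOGAT, NIA1 and NiR kept their direction and their call, and the rise of NADH-GOGAT1 kept its direction only. GS2 and Fd-GOGAT fell by less, at -0.96 and -0.86 in moderate drought (limma, adjusted p = 0.0128 and 0.0135), against -1.41 and -1.23 as fitted. In severe drought they were at -1.36 and -1.38, against -1.74 and -1.68. NIA1 and NiR fell by more, at -1.90 and -1.22 in moderate drought and -2.23 and -1.89 in severe drought.

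None of the 7 genes passed the threshold between severe and moderate drought in limma, where 0.0145% of all tested genes did (0.00969% higher, 0.00484% lower), 3 in number; at an unadjusted p under 0.05 there was 1, GS1;2. The largest difference was that of GS1;2, 0.81 ± 0.33 (95% interval 0.04 to 1.57, adjusted p = 0.386), which was 0.33 without severe replicate 3. NiR differed by -0.61 (interval -1.40 to 0.19), Fd-GOGAT by -0.45 (-0.90 to 0.00), GS2 by -0.34 (-0.84 to 0.17) and NIA1 by -0.29 (-0.91 to 0.33). The 3 libraries of both droughts did not overlap for GS1;2 (severe higher) and for NIA1 and NiR (severe lower), 3 of 8 genes, against 20.4% of all tested genes.

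Both libraries numbered 3 departed from their mates at these genes. Normal replicate 3 held LOC_Os02g52730, listed here as a further nitrite reductase gene, at 4.65 times and the nitrate transporter gene NRT2.3 at 6.2 times the mean of its mates, next to NIA2 at 12.2, NADH-GOGAT1 at 2.93, NiR at 2.42, NIA1 at 2.14 and LOC_Os08g36500 at 2.07 times. GS2 and Fd-GOGAT were at 0.976 and 1.19 times there. Severe replicate 3 held GS1;2 at 2.74, NADH-GOGAT1 at 1.51 and GS1;1 at 1.43 times the mean of its mates, and Fd-GOGAT at 0.66, NiR at 0.592 and GS2 at 0.568 times, with NIA1 at 1.01.

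Photorespiration genes, whose pathway releases the ammonium that GS2 and Fd-GOGAT take up, fell along with them. Of the 11 listed genes, 9 fell in moderate drought, none rose and 2 were not called, and the counts in severe drought were the same, with medians of -0.90 and -1.28. Over all tested genes 18.9% were called lower in moderate and 20.6% in severe drought, and the medians were 0.20 and 0.22. GDCH, for the H protein of glycine decarboxylase, had 2004 TPM ± 216 under normal water, 266 TPM ± 62.9 in moderate drought and 268 TPM ± 88.4 in severe drought (SD, n = 3 each). Its log2 fold change was -2.93 in moderate and -2.95 in severe drought. GDCT, for the T protein, had -2.64 and -2.89, and PGLP1, for phosphoglycolate phosphatase, had -2.65 and -2.79. GDCP, for the P protein, which decarboxylates glycine, had -1.73 and -2.14. GLO1, for glycolate oxidase, and GDCL, for the L protein, were the ones not called. GLO1 had 2159 TPM ± 61.5 under normal water, 1855 TPM ± 160 in moderate drought and 1696 TPM ± 450 in severe drought. GDCL had 155, 30.6 and 140 TPM in the normal libraries, replicate 2 lying far below its mates. It averaged 87.9 TPM ± 6.31 in moderate drought and 89.6 TPM ± 4.11 in severe drought.

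Leaf and root marker genes moved with drought too. All 3 leaf markers fell in both droughts, with medians of -1.83 and -2.32: CAB2R, a chlorophyll-binding protein gene, averaged 5012 TPM under normal water, 1399 TPM in moderate drought and 1031 TPM in severe drought, and RbcS LOC_Os12g19470 averaged 1708, 503 and 475 TPM. Their summed level with RbcS LOC_Os12g17600 was 12232 to 16726 TPM in the normal libraries, 3331 to 4328 TPM in moderate drought and 1698 to 4039 TPM in severe drought. Of the root markers, HKT2;1, a sodium transporter gene, rose to 2.23 TPM in moderate and 2.16 TPM in severe drought, against 0.114 TPM under normal water, and IRT1, an iron transporter gene, fell to 0.272 and 0.155 TPM, against 1.65 TPM; the IRT1 model overlaps another on the opposite strand. Lsi1, a silicon transporter gene, averaged 17.9 TPM under normal water, 12.3 TPM in moderate drought, where it fell, and 16.5 TPM in severe drought, where it was not called. The 3 root markers summed to 19.1 to 20.6 TPM in the normal libraries, 14 to 15.6 TPM in moderate drought and 15.7 to 23.3 TPM in severe drought, and none was at 0 in every library. HKT2;1 reached 1 TPM in drought libraries only, and IRT1 in normal libraries only. Each thus passed the filter through the groups where it was high. The part of these markers in the changes of the nitrogen genes was not tested.

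Of the 9 other nitrogen enzyme genes listed, 7 were tested: 1 rose, 2 fell and 4 were not called in moderate drought, and 3 rose, 2 fell and 2 were not called in severe drought, with medians of 0.24 and 0.91. Calls thus made up 3 of 7 in moderate and 5 of 7 in severe drought, where 58.3% and 62.7% of all tested genes were called, with medians of 0.20 and 0.22. The moderate count of 3 calls was 6 in a fit without severe replicate 3. GDH1, a glutamate dehydrogenase gene, fell in both, with log2 fold changes of -1.17 in moderate and -1.19 in severe drought (adjusted p = 0.000224 and 0.0002). ASN1, an asparagine synthetase gene, had 1.68, 1.53 and 0.649 TPM under normal water, 2.77, 11.5 and 4.08 TPM in moderate drought, and 14, 4.98 and 31.3 TPM in severe drought. All its drought libraries lay above all normal ones, and it rose by 2.67 ± 0.62 in severe drought (adjusted p = 0.00524). That call held in all 16 alternatives, at 3.30 without severe replicate 2, 2.09 without severe replicate 3 and 1.87 without both libraries numbered 3. The moderate difference of 1.47 was not called (adjusted p = 0.0691; 0.0274 without severe replicate 2 and 0.045 without severe replicate 3). Its model overlaps LOC_Os03g18120 on the opposite strand, and the use of strand in counting was not given in the sources used here.

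GS1;3, the remaining cytosolic glutamine synthetase gene, was listed at 0.0274, 0 and 0 TPM under normal water, and had 0.763, 1.01 and 0.561 TPM in moderate drought and 1.22, 0.566 and 5.9 TPM in severe drought. It rose by 1.52 ± 0.45 in severe drought (limma, adjusted p = 0.0174), from a level far below those of GS1;1 and GS1;2. GS1;3 reached 1 TPM in drought libraries only, so it passed the filter through the groups where it was high. That limit applies to its place among the 3 other enzyme genes called higher in severe drought. The size rests on the pseudocount and on severe replicate 3, being 4.01 with a pseudocount of 0.1 TPM and 0.89 without that library (adjusted p = 0.00108 and 0.00119), and the moderate difference of 0.81 was called without it (adjusted p = 0.000936). NADH-GOGAT2 (LOC_Os05g48200), singled out after its values were seen, had 22.4, 24.5 and 16.6 TPM in the normal libraries, 64.2, 46.8 and 85.1 TPM in moderate drought, and 55.8, 53.7 and 33.7 TPM in severe drought. No normal library reached the drought range. NADH-GOGAT2 rose by 1.56 ± 0.26 in moderate drought and by 1.12 ± 0.26 in severe drought (adjusted p = 0.000989 and 0.00538), and unlike NADH-GOGAT1 it kept both calls in all 16 alternatives.

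Of 10 listed transporter genes of nitrate and ammonium, 6 were tested, and 4 rose and 2 were not called in each drought, with medians of 0.60 and 0.90. Among all tested genes 39.4% were called higher in moderate and 42.1% in severe drought, at medians of 0.20 and 0.22. With median-of-ratios scaling 2 of the moderate calls remained, those of AMT2;1 and NRT1.1B being lost. NRT1.1A, a nitrate transporter gene, had 29.8 TPM ± 2.97 under normal water, 57.3 TPM ± 0.454 in moderate drought and 69.4 TPM ± 8.76 in severe drought, and rose by 0.93 in moderate and 1.19 in severe drought. NRT1.1B, a related gene, rose by 0.46 and 0.90, and AMT2;1, an ammonium transporter gene, by 0.75 and 1.26. NAR2.1, for the partner protein of high-affinity nitrate transporters, rose by 0.93 and 0.90 (2.08 and 2.01 with a pseudocount of 0.1 TPM). NAR2.1 averaged only 0.296 TPM under normal water, 1.46 TPM in moderate drought and 1.45 TPM in severe drought. It reached 1 TPM in drought libraries only, and so passed the filter through the groups where it was high. That limit applies to its place among the 4 that rose. The NRT1.1B call in moderate drought was also lost with quantile normalization (0.25, adjusted p = 0.17), without the filter on low values, and without moderate replicate 1 or 3 or any 1 normal library. NRT2.1, NRT2.2 and AMT1;2 were at or near 0 TPM in every library. NRT2.3, the remaining gene that was not tested, went the other way. It had 1.03, 0.943 and 6.11 TPM in the normal libraries and 0.216, 0.26 and 0.701 TPM in moderate drought. In severe drought it had 0.339, 0.278 and 0.36 TPM, so every drought library lay below every normal library.

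Of 4 listed regulator genes, 1 rose and 1 fell in each drought, with medians of 0.18 and 0.21. These 2 calls of 4 are near the 58.3% and 62.7% called among all tested genes, whose medians were 0.20 and 0.22. NLP4, for a nitrate-responsive NIN-like transcription factor, had 86.1, 83.5 and 92 TPM in the normal libraries, 17.2, 11.4 and 16 TPM in moderate drought, and 16.2, 18.8 and 11.7 TPM in severe drought. The drought libraries lay in a narrow range far below the normal ones. NLP4 fell by 2.49 ± 0.19 in moderate drought and fell by 2.43 ± 0.19 in severe drought (adjusted p = 1.16e-05 and 1.27e-05), and both calls held in all 16 alternatives. NLP1, a related gene, rose by 0.77 ± 0.16 and 0.90 ± 0.16 in moderate and severe drought (adjusted p = 0.00283 and 0.00112).

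**Figure D4:**
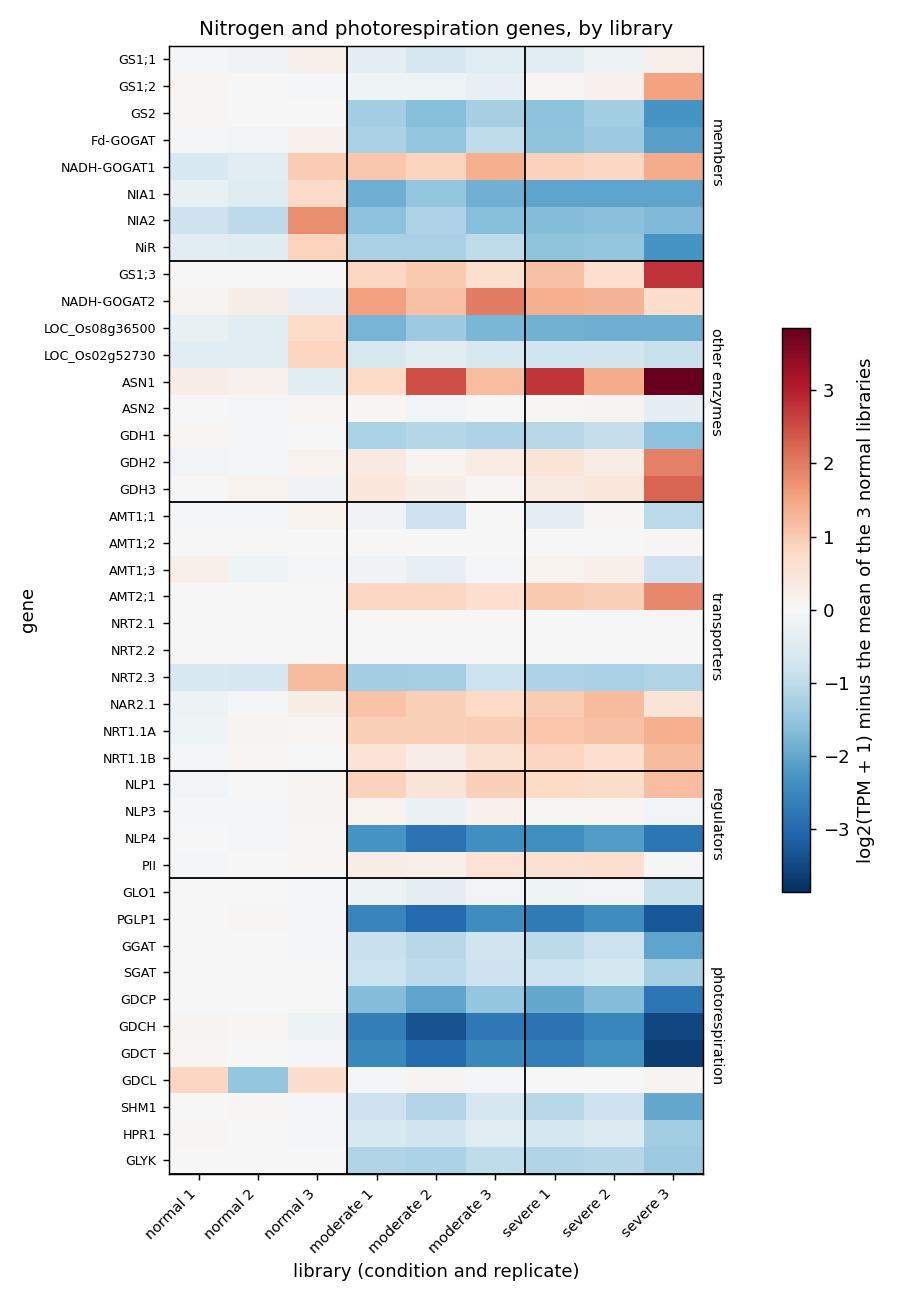
Log2(TPM + 1) of the 8 nitrogen assimilation genes and 34 listed enzyme, transporter, regulator and photorespiration genes in each of the 9 libraries, minus the mean of the 3 normal libraries (red higher, blue lower). The lower levels of GS2, Fd-GOGAT, NIA1, NiR, NLP4 and most photorespiration genes run through all 6 drought libraries, and normal replicate 3 and severe replicate 3 show as columns unlike their mates.

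The profiles most like each gene were ranked by Pearson's r of log2(TPM + 1) over the 9 libraries, which share the drought contrast and the libraries numbered 3, so high values are common and are given as a description. GS2 was most like LOC_Os10g25430 and GDCP (r = 0.999 for both). Fd-GOGAT was most like LOC_Os11g16530 and LOC_Os03g12660 (0.995 for both), with GDCP at 0.990 among the listed genes. NIA1 was most like its paralog LOC_Os08g36500 (0.999), then LOC_Os01g44050 (0.988).

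NiR was closest to LOC_Os08g26840 (0.983) and LOC_Os02g33710 (0.978), with LOC_Os08g36500 at 0.927 among the listed genes. NADH-GOGAT1 was closest to LOC_Os03g62340 (0.985) and LOC_Os10g35294 (0.983), with NLP1 at 0.833. GS1;2 was closest to LOC_Os05g02890 (0.988) and LOC_Os02g48630 (0.985), with GDH2, a glutamate dehydrogenase gene, at 0.909; GDH2, like GS1;2, was high in severe replicate 3, at 3.08 times the mean of its mates. GS1;1 was closest to LOC_Os07g26490 (0.984) and LOC_Os11g06300 (0.973), and its best match among the listed genes, NLP4, reached 0.525.

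H2Bub1 was examined at the same loci in the authors' deposited tables of regions, which hold 1 value per condition as a log2 concentration, so that no spread between replicates can be given here. In the authors' deposited table, moderate drought against normal water had 1395 regions, 224 higher and 1171 lower in drought, and severe drought had 886, 93 higher and 793 lower, all with a false discovery rate (FDR) under 0.05. None of the 8 genes was assigned a region in either table, against 6.11% of the RNA-tested genes in moderate and 4.02% in severe drought. With 8 genes, a count of 0 is near those shares.

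In the authors' deposited table for moderate drought, 1 region (chr4:33625081-33625580) lies inside the GS2 model, 5515 bp downstream of its start, but is assigned to the neighbour LOC_Os04g56390 as a promoter region at 1953 bp. Its log2 concentration was 4.44 in moderate drought and 6.34 under normal water, a log2 fold change of -1.9 with FDR 0.0219 in that deposited table. For the other 7 genes the nearest region in the authors' deposited moderate and severe drought tables lay between 22019 bp (GS1;1) and 348999 bp (NIA1) away. NLP4 was the one gene of the 34 others with a region of its own in the authors' deposited drought tables. That region (chr9:21737358-21737857, 1873 bp from the start site) had a log2 concentration of 6.71 in moderate drought and 8.82 under normal water, a log2 fold change of -2.11 with FDR 3.46e-18 in the authors' deposited table.

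Between osbzip46 mutant and wild type leaves under drought, the authors' deposited table listed 522 regions, 432 higher and 90 lower in the mutant, of which 9 had an FDR under 0.05. It listed 1 of the 8 genes, GS1;1, against 2.25% of the RNA-tested genes. Its region (chr2:30676925-30677424, annotated as a promoter 52 bp from a start site) had a log2 concentration of 5.93 in the mutant and 4.78 in wild type, a log2 fold change of 1.15 with p = 0.454 and FDR 0.93 in the authors' deposited table, and so passed no threshold. For Fd-GOGAT the nearest region in that table lay 171006 bp away. The authors' deposited table by gene held 1287 entries, all lower in the mutant and none with a p above 0.0499. Any gene it lists is thus lower with a p under 0.05, and no FDR is given here for these entries. The table by gene listed Fd-GOGAT with a log2 fold change of -1.17 (the authors' p = 0.0194) and not as an OsbZIP46 target. It listed 6% of the RNA-tested genes. In the same authors' deposited table GLO1 had a log2 fold change of -1.31 (the authors' p = 0.0135) and was entered as a target. The authors' deposited table also gives an expression log2 fold change of drought against normal water in wild type, -1.44 for GLO1 and -1.0 for Fd-GOGAT. In the RNA libraries described here GLO1 had -0.22 in moderate and -0.39 in severe drought and was not called. Fd-GOGAT had -1.23 and -1.68 here and was called lower in both. The authors' values may refer to another drought level, as the labels of the wild type drought treatment give no soil water content.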

How the data were processed

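RNA was analysed in 9 libraries, 3 per condition. The deposited tables hold, per the file headers, TPM, FPKM and coverage for every gene; coverage is a signal of mean depth per base that is not scaled for library size. Library depth was worked out from coverage divided by FPKM; read counts were not used here. Per the submitters' processing notes, HISAT2 2.0.5, DESeq2 1.20.0, Bowtie2 2.3.4 and MACS2 2.1.1 are named, without a role. A genome build was not given in the sources used here; coordinates follow the files. H2Bub1 values are the authors' deposited log2 concentrations and log2 fold changes per region, with their p-value and FDR; individual immunoprecipitation or input samples were not analysed here.

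The design named a count test for counts and limma for TPM, so limma 3.58.1 (R 4.3.3, statmod 1.5.0; trend and robust) was fitted to log2(TPM + 1) of all 9 libraries, restricted to genes reaching 1 TPM in 3 or more libraries. This scale understates changes of low genes. Tests were two-sided, with Benjamini-Hochberg adjustment over all 20642 tested genes and a threshold of 0.05. The scripts were tested on simulated data. The 4 ratios were tested by exact permutation of 6 drought against 3 normal libraries.

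The 8 genes and the further lists were chosen with earlier results of these data known. Names of listed genes other than the 8 come from general knowledge of rice loci, as the files pair none. Named list genes are up to 4 called per list with the largest change in severe drought; for likeness, the 2 closest of all genes and the closest listed one. Alternatives were a pseudocount of 0.1, no filter, quantile normalization, median-of-ratios scaling, the 6 libraries compared, a replicate block, and each library left out.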

Additional observations from a re-analysis of the deposited data

How the results depend on the processing

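GS2, Fd-GOGAT and NIA1 kept direction and call in both droughts, and NiR in severe drought, under all 16 alternatives. The 6 calls of nitrogen assimilation genes in moderate drought numbered 3 to 6 when single libraries were left out, with 3 without moderate replicate 1 and without moderate replicate 2; the 5 in severe drought numbered 4 or 5. Between severe and moderate drought, the 3 genes called of all tested were 1 without the filter, 1 with median-of-ratios scaling, 1 to 11 when single libraries were left out (11 without severe replicate 3), and 9 without normal and severe replicates 3 together, an alternative chosen after seeing the data; none of the 8 genes was among the calls. The difference of NADH-GOGAT1 between droughts, -0.06, changed sign to 0.01, 0.06 and 0.08 without severe replicate 1, severe replicate 2 and moderate replicate 3, and ranged from -0.26 to 0.08.

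When single libraries were left out, the difference in the cytosolic glutamine synthetase share ranged from 11.22 to 17.21 points. That of NADH-GOGAT1 over Fd-GOGAT ranged from 2.3 to 3.00 and that of NIA1 plus NIA2 over NiR from -0.58 to -0.36. The fourth, GS1;1 over GS1;2, ranged from -0.58 to -0.33. The adjusted p (exact permutation) was up to 0.143 for the first 2, 0.286 for the third and 0.214 for the fourth. Fewer libraries raise the smallest possible p. Without both libraries numbered 3, the first 2 differences were 12.02 points and 2.80 (exact permutation, adjusted p = 0.127). The 1 region listed at these genes, that of GS1;1, left 0 at an FDR under 0.01.

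Replicate numbers are shared between conditions, but deviations of same-numbered libraries correlated at only -0.26 to 0.14, so the numbers were not taken to pair them. With a replicate block, 11781 genes were called in moderate drought, 12681 in severe drought and 1 between droughts. The block left the number of nitrogen assimilation genes called at 6, 5 and 0. Permuted within blocks, the share and GOGAT differences of 15.76 points and 2.57 had an adjusted p of 0.0988 (exact permutation), but no value could have passed, since the smallest two-sided p of that design is above 0.05.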
